A study of Mus musculus with 14 samples.

Results

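Messenger RNA levels are described here for 10 genes through which a skeletal muscle fibre releases, stores and clears calcium: Cacna1s, Ryr1, Jph1, Atp2a1, Atp2a2, Sln, Pln, Casq1, Casq2 and Pvalb. They were chosen by name from 49585 genes in the deposited tables, and all 10 were found there. The samples were 12 libraries of RNA from mouse hind limb skeletal muscle, 3 each from uninjured wild-type (WT), uninjured Myf6 knockout (KO), injured WT and injured KO muscle. Myf6, also called MRF4, is a myogenic transcription factor, and a ChIP-seq library made with a Flag antibody in primary myotubes, with 1 control library, gave a list of its binding peaks. The labels name no strain, age, design of the knockout allele, kind of injury or time after injury. The library names of a genotype repeat 3 numbers, with the letter L when uninjured and R when injured, and are read here as the limbs of 3 animals. No number is shared by the genotypes, so genotype cannot be told apart from litter or batch.

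In skeletal muscle an action potential spreads along membrane tubules and moves the voltage sensor, of which Cacna1s encodes the pore-forming subunit. The sensor opens the ryanodine receptor Ryr1 in the facing membrane of the sarcoplasmic reticulum, and calcium leaves the store and starts contraction. SERCA pumps then return calcium to the store. Fast fibres use mainly the Atp2a1 pump and slow fibres mainly the Atp2a2 pump, while the small membrane proteins sarcolipin (Sln) and phospholamban (Pln) inhibit them.

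Among the 10 genes, Sln stood apart between the genotypes. Its level was higher in every KO library than in every WT library of the same injury state. Such separation with the KO higher held for 6.2% of all genes in uninjured and 8.29% in injured muscle. On the log2(RPM + 1) scale the Sln estimate was 1.29 uninjured, 2.69 injured and 1.99 for the mean of both limbs of an animal. RPM is reads assigned to a gene, scaled to a fixed total over all genes, and log2 differences below are all on the log2(RPM + 1) scale unless another is named. Sln did not pass limma's test at a Benjamini-Hochberg adjusted p of 0.05 in any of these comparisons (adjusted p = 0.196, 0.298 and 0.0646), while it passed in the authors' deposited table in both injury states. Atp2a2 and Cacna1s had the next largest estimates in injured muscle, and limma called both there only when KO replicate 2 was left out. In that fit limma called 19% of all genes, with 9.49% called higher. Ryr1, Casq1 and Pvalb varied little between libraries.

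**Figure D1:**
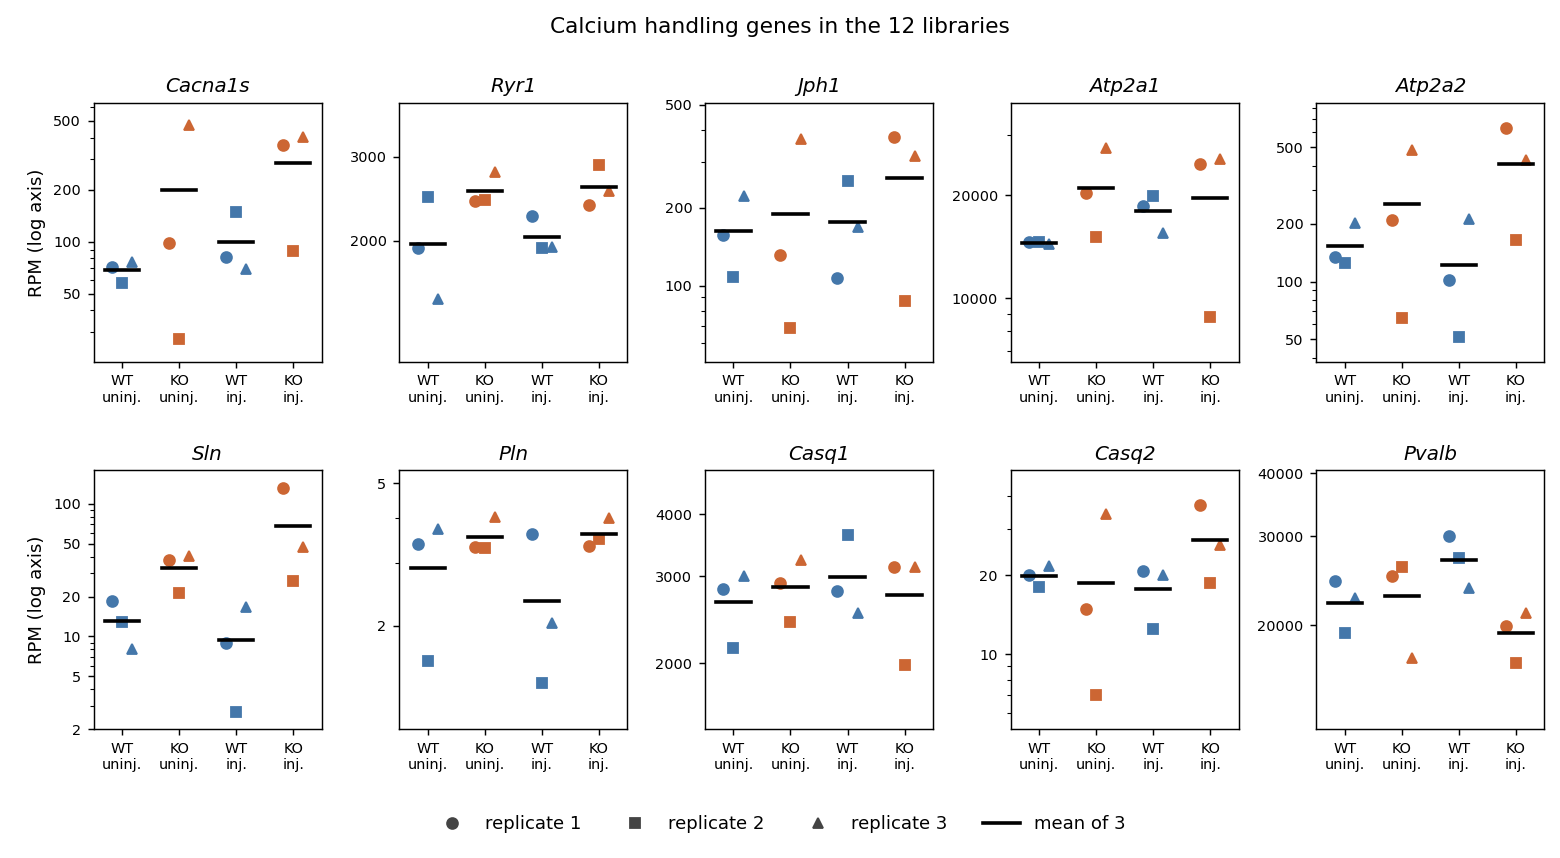
RPM of each calcium handling gene on a log axis, by group, with the shape giving the replicate and the bar the arithmetic mean of 3 libraries. Sln is higher in all KO than in all WT libraries of the same injury state (21.3 to 40.1 against 8.00 to 18.5 RPM uninjured). Such separation holds for 6.2% of all genes uninjured and 8.29% injured. Replicate 2 (squares) is the lowest KO library in both limbs for 7 of the 10 genes and for 38.2% of all genes.

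The promoter sequences shown here are the 250 bases before the RefSeq start of 3 genes, in the build GRCm38.p6, from RefSeq. They are the members whose window holds CAGCTG, a form of the E-box that myogenic factors of the Myf6 family bind, and the hexamer is in capitals. Atp2a1 is also 1 of the 2 genes whose promoter window met a binding peak.
Atp2a1, chr7:126463074-126463323, minus strand: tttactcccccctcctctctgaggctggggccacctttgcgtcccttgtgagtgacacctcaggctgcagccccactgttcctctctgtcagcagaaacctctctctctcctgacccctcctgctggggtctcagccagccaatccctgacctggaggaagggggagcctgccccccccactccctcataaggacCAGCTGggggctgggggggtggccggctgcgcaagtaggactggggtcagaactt
Casq1, chr1:172219896-172220145, minus strand: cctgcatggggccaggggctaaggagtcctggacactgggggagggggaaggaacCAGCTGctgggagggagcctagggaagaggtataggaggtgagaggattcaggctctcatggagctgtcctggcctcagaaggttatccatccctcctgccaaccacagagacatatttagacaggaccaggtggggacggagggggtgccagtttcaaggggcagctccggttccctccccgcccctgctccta
Cacna1s, chr1:136052561-136052810, plus strand: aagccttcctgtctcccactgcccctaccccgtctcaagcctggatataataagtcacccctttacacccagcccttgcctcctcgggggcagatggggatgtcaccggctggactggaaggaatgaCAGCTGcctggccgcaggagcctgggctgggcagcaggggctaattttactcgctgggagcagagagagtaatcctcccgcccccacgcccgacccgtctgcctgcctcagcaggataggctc
CAGCTG reads the same on both strands and is itself a CANNTG. It occurred in 3 of 8 windows of the 7 members that have an entry, and in 13.0% of 32851 windows of the same length. CANNTG of any kind occurred in 6 of the 8 windows and in 66.2% of all. In Atp2a1 the hexamer lay 55 to 50 bases before the start. In Cacna1s it lay 123 to 118 bases before, and in Casq1 195 to 190 bases before. A match is a description of these letters and not of binding.

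The libraries held 1880087 to 49392472 reads assigned to genes, and 3 reads, used as the floor of detection, correspond to 0.0607 to 1.60 RPM. Uninjured WT replicate 2 was the smallest library. Myf6 itself was at 25.0 to 121 RPM in the 6 WT libraries and at 1.86 to 3.46 RPM in the 6 KO libraries. The summed level of 7 muscle fibre markers, such as Acta1 and Ckm, was 106101 to 116129 RPM in uninjured WT and 152446 to 164456 RPM in uninjured KO libraries, without overlap. After injury it was 108718 to 139967 RPM in WT and 103705 to 147448 RPM in KO. The summed level of 9 slow-fibre markers was 1300 to 1731 RPM in uninjured WT, 1847 to 4061 RPM in uninjured KO, 364 to 1390 RPM in injured WT and 1697 to 6130 RPM in injured KO libraries. Of cardiac markers, Myh6 was at 0.532 to 2.03 RPM in uninjured WT and at 176 to 296 RPM in uninjured KO libraries, and at 0.636 to 1.34 RPM in injured WT and 74.7 to 267 RPM in injured KO libraries. Myh6 was called by limma in all 3 KO against WT comparisons. Of the 3 cardiac markers that passed the filter 2 had a higher estimate in KO in each comparison, and Myl7 was at 0 in all 12 libraries. Mitochondrially encoded genes took 8.35% to 22.3% of the reads of the WT libraries and 3.63% to 6.76% in 4 of the 6 KO libraries. In KO replicate 2 they took 15.3% uninjured and 23.2% injured, so that this animal stood apart from the other KO animals. The 15.3% lay within the uninjured WT range of 13.8% to 22.3%. The 23.2% was above every WT library, those of injured muscle being at 8.35% to 14.8%. The nuclear RNA Malat1 was at 213 to 284 RPM in uninjured WT, 81.1 to 106 RPM in uninjured KO, 249.2 to 494 RPM in injured WT and 73.4 to 288 RPM in injured KO libraries, the 288 being KO replicate 2. The part of these shares in the differences between genotypes was not tested. In bulk tissue a smaller share of cells of a kind and less RNA per cell cannot be told apart.

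Over the 10 genes, limma called none in any comparison at an adjusted p of 0.05. The share of all genes called was 0.281% in uninjured muscle, 0.269% in injured muscle and 1.16% for the mean of both limbs. At an unadjusted p of 0.05, limma found 1 of the 10 in uninjured muscle, 2 in injured muscle and 1 for the mean of both limbs, against 14.2%, 10.3% and 16.3% of all genes. On whole reads recovered from the RPM values, edgeR called 0 of the 10 in each of these comparisons (0.441%, 0.261% and 0.382% of all genes), and DESeq2 called 1, Sln, in each, where DESeq2 called 5.32%, 3.38% and 4.74% of all genes. The estimate was above 0 for 8, 7 and 8 of the 10, where that held for 36.8%, 52% and 41.8% of all genes. Groups did not overlap for 2, 3 and 3 of the 10, and for 21.7%, 16.9% and 22.3% of all genes. The median difference of the 10 was 0.29, 0.45 and 0.30 on the log2 scale, beside -0.18, 0.01 and -0.08 over all genes tested. The -0.18 in uninjured muscle was -0.01 after TMM scaling, so a difference near 0 there depends on how libraries were scaled. P-values here measure the spread between 3 animals of each genotype.

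**Figure D2:**
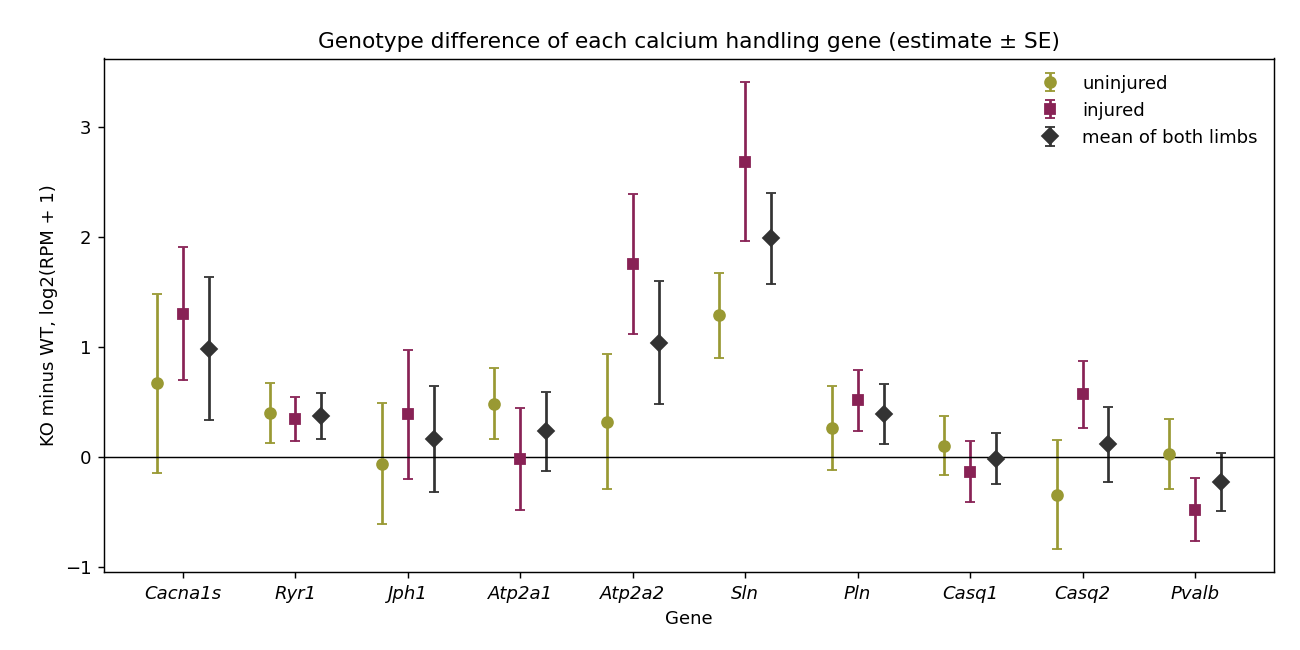
Difference between KO and WT on the log2(RPM + 1) scale for each gene in uninjured muscle, injured muscle and the mean of both limbs, as limma's estimate with its SE, 3 libraries or animals a group. Sln has the largest estimate in each comparison (1.29, 2.69 and 1.99), and Pvalb the lowest in injured muscle (-0.48).

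Cacna1s encodes the pore-forming subunit of the voltage sensor. It read 71.4, 58.0 and 76.1 RPM in uninjured WT replicates 1 to 3 and 98.6, 27.2 and 470 RPM in uninjured KO replicates 1 to 3. The injured libraries read 81.2, 148 and 69.2 RPM in WT and 361, 87.7 and 402 RPM in KO. KO replicate 2 was the lowest KO library in both limbs and lay below every WT library when uninjured, so the groups overlapped in both states. The difference was 0.67 (SE 0.81, limma adjusted p = 0.759) in uninjured and 1.30 (SE 0.61, adjusted p = 0.529) in injured muscle. Without uninjured KO replicate 3 the first of these was -0.38. Without KO replicate 2 the limma difference was 2.01 (adjusted p = 0.00987) in injured muscle and 1.83 (adjusted p = 0.0024) for the mean of both limbs, and in those fits 9.49% and 9.79% of all genes were called higher. With all animals the mean of both limbs differed by 0.99 (SE 0.65, limma adjusted p = 0.502), and over 14 alternative fits by 0.27 to 1.83. Cacna1s had the widest spread of the 10, with a within-group SD of 1.22 on the log2 scale, at the 99.1 percentile of 7143 genes, whose median was 0.397.

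Ryr1, the release channel, varied far less. It read 1935, 2471 and 1509 RPM in uninjured WT and 2420, 2441 and 2788 RPM in uninjured KO replicates 1 to 3. The injured values were 2252, 1932 and 1941 RPM in WT and 2376, 2879 and 2539 RPM in KO. Every injured KO library was above every injured WT library, while uninjured WT replicate 2 lay among the KO libraries. Its differences were small, 0.40 (SE 0.27, limma adjusted p = 0.553) uninjured and 0.35 (SE 0.20, adjusted p = 0.601) injured. The mean of both limbs also separated the genotypes, by 0.37 (SE 0.21, limma adjusted p = 0.436). Groups that separate with the KO higher were not rare: 8.29% of all genes did so in injured muscle and 6.79% for the mean of both limbs. Its within-group SD of 0.21 on the log2 scale was the lowest of the 10.

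Jph1 encodes junctophilin 1, which holds the tubule and the reticulum membrane together. It read 157, 107 and 221 RPM in uninjured WT and 131, 68.6 and 367 RPM in uninjured KO replicates 1 to 3. After injury it read 107, 252 and 169 RPM in WT and 376, 87.0 and 315 RPM in KO. The highest and the lowest library of each comparison were both KO, with replicate 2 the lowest. The difference was -0.06 (SE 0.55, limma adjusted p = 0.977) uninjured, which turned positive under 4 scalings or tools, and 0.39 (SE 0.59, adjusted p = 0.858) injured. Without KO replicate 2 the mean of both limbs differed by 0.77 (limma adjusted p = 0.0346), and with all animals by 0.17 (SE 0.48, adjusted p = 0.908). The fit without KO replicate 2 called 9.79% of all genes higher.

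Atp2a1, the pump SERCA1 of fast fibres, read 14630, 14557 and 14361 RPM in uninjured WT and 20222, 15061 and 27519 RPM in uninjured KO replicates 1 to 3. The injured values were 18583, 19933 and 15534 RPM in WT and 24688, 8800 and 25460 RPM in KO. The uninjured WT libraries lay close together and below all uninjured KO libraries. Such separation with the KO higher held for 6.2% of all genes. The difference was 0.48 (SE 0.32, limma adjusted p = 0.541) uninjured and -0.02 (SE 0.47, adjusted p = 0.995) injured. The latter was 0.48 without injured KO replicate 2, whose value was the lowest of the 12. The 7 muscle fibre markers, whose sums also separated the genotypes in uninjured muscle, had a median difference there of 0.52, and the 9 fast-fibre markers, 3 of them in both lists, one of 0.44. Their part in the Atp2a1 difference was not tested. In the authors' deposited table the uninjured log2 change of Atp2a1, turned to KO over WT, was 0.69 with a q-value of 0.367.

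Atp2a2 encodes SERCA2, the pump of slow fibres. It read 134, 126 and 201 RPM in uninjured WT and 209, 64.7 and 486 RPM in uninjured KO replicates 1 to 3, with the KO values on both sides of the WT. In injured muscle it read 102, 51.6 and 212 RPM in WT and 630, 164 and 431 RPM in KO. There only WT replicate 3 and KO replicate 2 were out of order. The difference was 0.32 (SE 0.61, limma adjusted p = 0.855) uninjured, 1.76 (SE 0.64, unadjusted p = 0.0281, adjusted p = 0.418) injured and 1.04 (SE 0.56, adjusted p = 0.413) for the mean of both limbs. Leaving out 1 library at a time gave 1.26 to 2.31 in injured muscle. The injured estimate was exceeded in size by 0.768% of all genes. Without uninjured KO replicate 3 the uninjured difference was -0.36. Without KO replicate 2 the limma difference was 2.31 (adjusted p = 0.0259) in injured muscle and 1.70 (adjusted p = 0.0051) for the mean of both limbs. Those fits called 9.49% and 9.79% of all genes higher. The authors' deposited table gave a log2 change of 1.80, KO over WT, with a q-value of 0.235 in injured muscle.

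Sln encodes sarcolipin, the small inhibitor of the pumps. It read 18.5, 12.8 and 8.00 RPM in uninjured WT and 37.6, 21.3 and 40.1 RPM in uninjured KO replicates 1 to 3. In injured muscle it read 9.0, 2.70 and 16.6 RPM in WT and 132, 26.3 and 47.1 RPM in KO. No KO library fell to the level of any WT library of the same state, even KO replicate 2, the lowest KO library in both limbs. Separation with the KO higher held for 6.2% of all genes uninjured and 8.29% injured. The thinnest of these values rest on 24 reads (uninjured WT replicate 2) and 72 reads (injured WT replicate 2). The difference of 1.29 (SE 0.39) uninjured is 2.45-fold, that of 2.69 (SE 0.73) injured 6.45-fold and that of 1.99 (SE 0.41) for the mean of both limbs 3.97-fold, each on the scale with 1 RPM added. Limma's unadjusted p was 0.00875, 0.00763 and 0.00114, and its adjusted p 0.196, 0.298 and 0.0646. In size, the injured difference was exceeded by 0.222% and that of the mean of both limbs by 0.487% of all genes.

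The call on Sln depended on the test and not its direction, which was positive under all 14 alternatives in each KO against WT comparison. DESeq2 on recovered reads gave an adjusted p of 0.0088, 0.0053 and 0.00197 in the same order. The edgeR quasi-likelihood test gave an adjusted p of 0.0933, 0.331 and 0.19. For the mean of both limbs limma passed with TMM scaling (adjusted p = 0.0365), upper quartile scaling (0.0403) or when mitochondrial genes were left out of the library totals (0.0454). With these scalings limma called 182, 199 and 268 of all 13337 genes, against 155 in the main fit. Without KO replicate 2 Sln passed in injured muscle (difference 3.21, limma adjusted p = 0.0212) and for the mean of both limbs (2.39, adjusted p = 0.000835). Those fits called 9.49% and 9.79% of all genes higher. Leaving out any other single library or animal, Sln did not pass. Its limma adjusted p was then 0.616 to 0.834 in injured muscle and 0.0972 to 0.257 for the mean of both limbs. The authors' deposited table gave log2 changes of 1.50 uninjured and 2.92 injured, KO over WT, with q-values of 0.034 and 0.00776, where 0.668% and 0.454% of all listed genes had a q-value under 0.05. Those shares are over all 49585 listed genes, and cannot be set beside the shares of the other tests, which are over genes that passed the filter. The slow-fibre markers moved with Sln: all 9 had a higher estimate in KO in each comparison, and their sums above did not overlap between genotypes. The sums of 7 smooth muscle markers did not overlap either, at 162 to 258 RPM in uninjured WT and 271 to 380 RPM in uninjured KO libraries, nor in injured muscle, at 170 to 220 RPM in WT and 241 to 328 RPM in KO. Of the 7 smooth muscle markers, 5 had a higher estimate in KO uninjured, 6 injured and 6 for the mean of both limbs. Adipocyte markers had a higher estimate in KO for 5 of 5 genes in each comparison, and macrophage and leukocyte markers for 0 of 5. In the same order it was higher for 1, 2 and 1 of 5 fibroblast, 1, 2 and 1 of 5 red cell and 2, 4 and 3 of 5 endothelial markers. The part of these marker lists in the Sln difference was not tested.

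Pln encodes phospholamban, the inhibitor best known from heart and slow muscle. Its level was low, between 1.39 and 4.02 RPM over the 12 libraries, and in uninjured WT replicate 2 it rested on 3 reads, the floor. The KO libraries lay in a narrow band of 3.31 to 4.02 RPM in both states. The WT libraries read 3.38, 1.60 and 3.72 RPM uninjured and 3.60, 1.39 and 2.03 RPM injured, so that the groups overlapped. The difference was 0.27 (SE 0.38, limma adjusted p = 0.802) uninjured and 0.52 (SE 0.28, adjusted p = 0.571) injured. Without uninjured WT replicate 2 the former was -0.0044.

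Casq1 and Casq2 encode the calsequestrins, which bind calcium inside the reticulum, Casq1 being the main form of fast fibres. Casq1 lay between 1985 and 3635 RPM, and its means were 2660 ± 449 (SD, n = 3) in uninjured WT, 2851 ± 408 (SD, n = 3) in uninjured KO, 2989 ± 575 (SD, n = 3) in injured WT and 2751 ± 663 RPM (SD, n = 3) in injured KO. These means differed by less than the spread within groups, and the differences were 0.10 (SE 0.27, limma adjusted p = 0.898) and -0.13 (SE 0.28, adjusted p = 0.905). Casq2 read 20.1, 18.1 and 21.6 RPM in uninjured WT and 14.9, 7.01 and 34.2 RPM in uninjured KO replicates 1 to 3. The injured values of Casq2 were 20.8, 12.4 and 20.1 RPM in WT and 37.0, 18.6 and 26.0 RPM in KO. KO replicate 2 was again the lowest KO library in both limbs, and the groups overlapped. The difference of Casq2 was -0.34 (SE 0.49, limma adjusted p = 0.804) uninjured, 0.18 without uninjured KO replicate 2, and 0.57 (SE 0.31, adjusted p = 0.573) injured.

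Pvalb encodes parvalbumin, the soluble calcium buffer of the cytosol of fast fibres. It read 24475, 19323 and 22692 RPM in uninjured WT and 25077, 26121 and 17269 RPM in uninjured KO replicates 1 to 3, which overlap. In injured muscle it read 29986, 27183 and 23714 RPM in WT and 19950, 16837 and 21166 RPM in KO. There the highest KO library was below the lowest WT library, as held for 8.63% of all genes. The injured difference was -0.48 (SE 0.29, limma adjusted p = 0.608), and the authors' deposited table gave -0.46, KO over WT, with a q-value of 0.994. Parvalbumin was the gene of the 10 with the lowest estimate in injured muscle and for the mean of both limbs, the latter at -0.23 (SE 0.26, limma adjusted p = 0.723). For that mean all KO animals were lower, as for 15.5% of all genes.

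KO replicate 2 gave the lowest of the 3 KO libraries in both limbs for 7 of the 10, Atp2a1, Atp2a2, Sln, Casq1, Casq2, Cacna1s and Jph1. Over all genes tested this held for 38.2%. WT replicate 2 was the lowest WT library in both limbs for 3 of the 10 and for 24% of all genes. Ryr1, Pln and Pvalb were the exceptions for KO replicate 2, and Ryr1 was lowest in both limbs of KO replicate 1. Within groups, Cacna1s, Atp2a2, Jph1 and Sln had SDs of 1.22, 1.03, 0.92 and 0.89 on the log2 scale, and Casq1, Pvalb and Ryr1 of 0.29, 0.22 and 0.21.

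Ratios between partner genes within a library do not depend on the scaling of that library. The ratio of Sln to Atp2a1 was higher in all KO than in all WT libraries of the same state. In uninjured muscle Sln stood at 0.126%, 0.0877% and 0.0557% of the RPM of Atp2a1 in WT and at 0.186%, 0.141% and 0.146% in KO replicates 1 to 3. In injured muscle these were 0.0484%, 0.0135% and 0.107% in WT and 0.535%, 0.299% and 0.185% in KO. The log2 ratio was higher in KO by 0.88 (pooled SD 0.45) uninjured, 2.91 (pooled SD 1.20) injured and 1.89 (pooled SD 0.59) for the mean of both limbs. Each gave p = 0.1 in a two-sided exact permutation test with n = 3 against 3, the smallest p that this design allows, and 0.24 after adjustment over the 12 ratios tested. These percentages compare reads and not molecules, since they are not divided by gene length.

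The ratio of Atp2a2 to Atp2a1, slow against fast pump, did not overlap between the genotypes in injured muscle. There it was 0.551%, 0.259% and 1.37% in WT and 2.55%, 1.87% and 1.69% in KO replicates 1 to 3, a log2 difference of 1.79 (pooled SD 0.88, exact permutation p = 0.1, n = 3 against 3). In uninjured muscle the log2 difference was -0.16 (pooled SD 0.78, exact permutation p = 0.9), with overlapping values. The change of this difference with injury was 1.95 on the log2 scale, with an exact permutation p of 0.2 over 3 animals against 3. The ratio of Casq2 to Casq1 differed by -0.48 uninjured, with overlap, and by 0.73 injured, without overlap (pooled SD 0.51, exact permutation p = 0.1). Pln to Atp2a2 overlapped in both states, with log2 differences of 0.06 and -1.04.

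**Figure D3:**
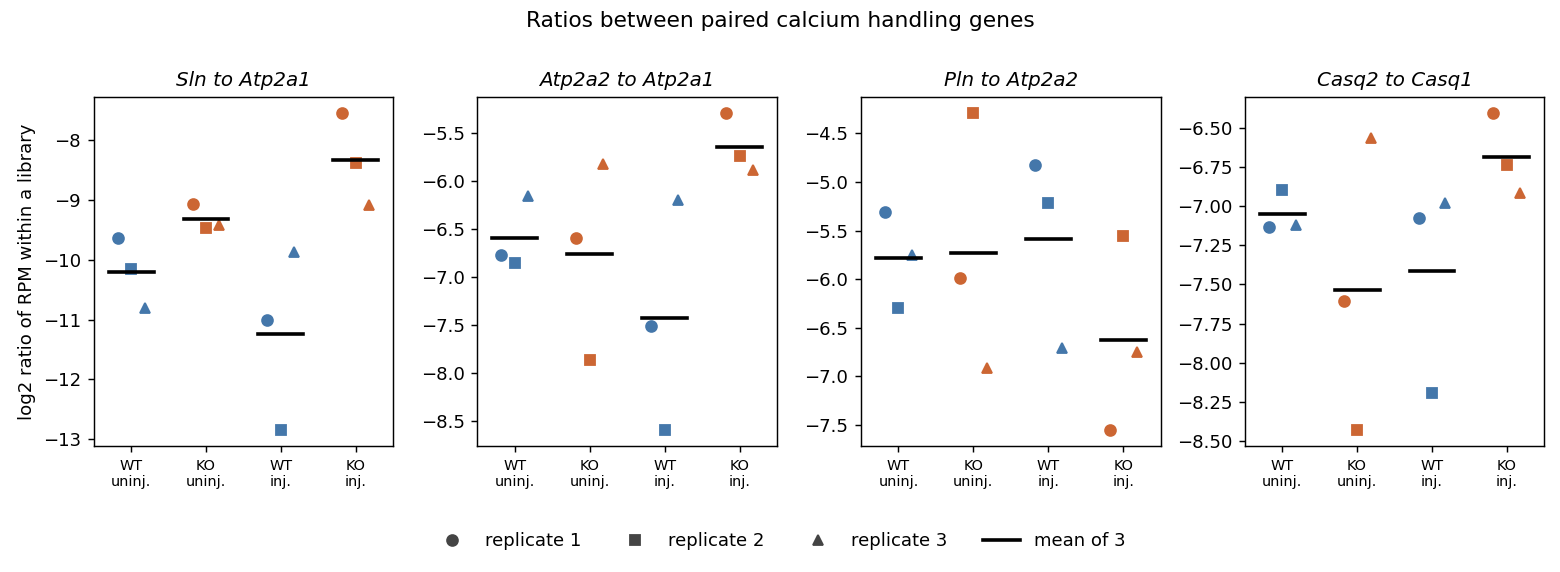
Log2 ratio of the RPM of 2 genes within a library, by group, with the shape giving the replicate and the bar the mean of 3. For Sln to Atp2a1 all KO lie above all WT libraries of the same state, by 0.88 and 2.91 on average, while Pln to Atp2a2 overlaps between genotypes.

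Injury did not move the 10 genes in a common direction. No gene of the 10 and none of the 13337 tested passed limma's adjusted p of 0.05 for injured against uninjured muscle in WT or in KO, or for the interaction of genotype and injury (0% of genes called in each). At an unadjusted p of 0.05 limma found 0 of the 10 in each of the 3, against 1.29%, 3.51% and 1.56% of all genes, and neither edgeR nor DESeq2 called any of the 10. These fits did not pair the limbs of an animal. With the animal as a block, limma found 0, 2 and 1 of the 10 at an unadjusted p of 0.05, in the same order. Of all 13337 genes, 319, 889 and 280 passed in those fits, and none passed at an adjusted p of 0.05. By animal, Sln differed between the injured and the uninjured limb by -0.96, -1.90 and 0.97 in WT replicates 1 to 3 and by 1.79, 0.29 and 0.23 in KO replicates 1 to 3. It was higher in the injured limb of all KO animals and of 1 of 3 WT animals. Over all genes the injury estimate was above 0 for 80.9% in KO and 62.4% in WT, with medians of 0.29 and 0.09. The KO median was 0.05 with TMM scaling. Atp2a2 differed by -0.38, -1.27 and 0.08 in WT and by 1.58, 1.33 and -0.17 in KO animals. Cacna1s differed by 0.18, 1.34 and -0.14 in WT and by 1.86, 1.65 and -0.22 in KO animals. KO replicates 1 and 2 had higher injured values for Atp2a2, Cacna1s, Casq2, Jph1 and Sln, while KO replicate 3 had lower injured values for the first 4. The interaction was 1.44 (SE 0.97) for Atp2a2 and 1.40 (SE 0.86) for Sln, both with a limma adjusted p of 1. Atp2a1 was the only member whose injured WT libraries all lay above the uninjured ones, by 0.30 (SE 0.40, limma adjusted p = 1), as held for 7.48% of all genes.

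**Figure D4:**
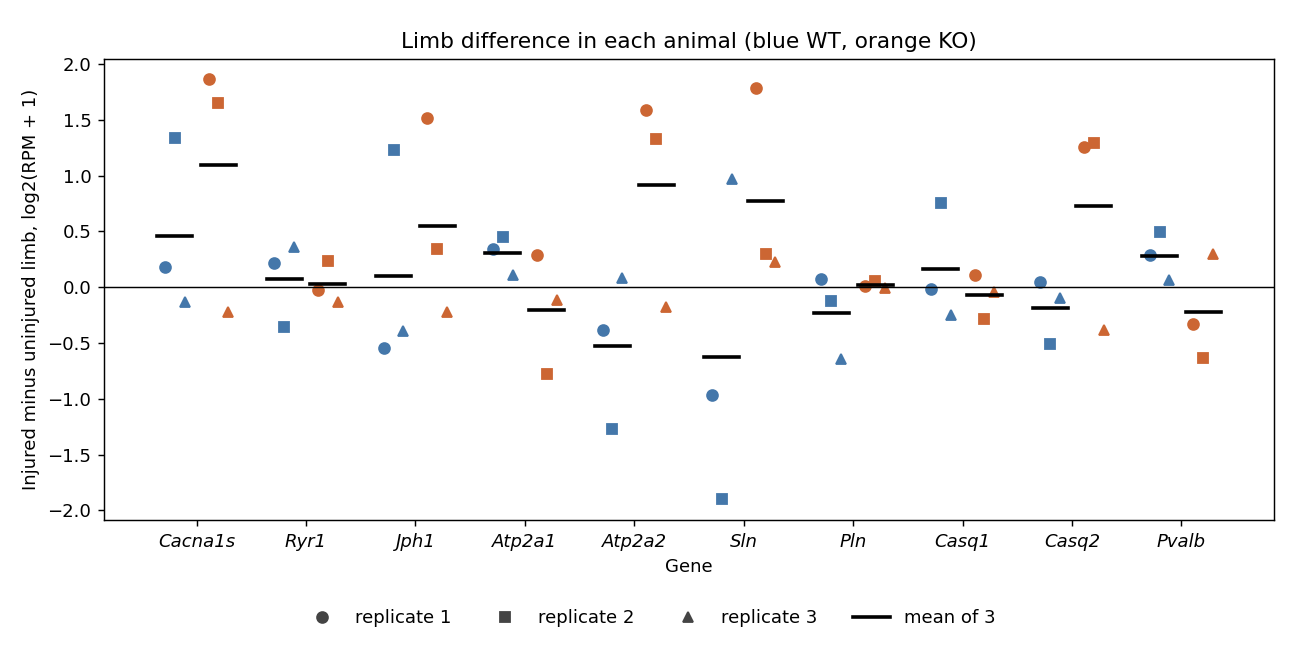
Injured minus uninjured limb on the log2(RPM + 1) scale for each animal, WT in blue and KO in orange, with the shape giving the replicate and the bar the mean of 3. Sln runs from -1.90 to 0.97 in WT and from 0.23 to 1.79 in KO animals, and Ryr1 and Pln stay near 0 in most.

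The wider calcium system was read from a list of 64 other genes, of which 58 passed the filter on low values. Limma called 0 of the 58 at an adjusted p of 0.05 in each comparison. At an unadjusted p of 0.05 it found 6 higher and 1 lower in uninjured KO muscle, 1 higher and 2 lower in injured KO muscle, and 3 higher and 1 lower for the mean of both limbs, where 14.2%, 10.3% and 16.3% of all genes passed in either direction. On recovered reads edgeR called 0 in each. DESeq2 called 7 higher in uninjured muscle (Ank1, Cacnb1, Calm3, Jph2, Jsrp1, Rcan1 and Srl), 1 higher and 1 lower in injured muscle (Micu2 and Mrln) and 1 higher for the mean of both limbs (Micu2), where it called 5.32%, 3.38% and 4.74% of all genes. Without KO replicate 2 limma called 9 higher and 1 lower of the 58 in injured muscle and 10 higher and 2 lower for the mean of both limbs, while it called 19% and 19.2% of all genes in those fits, close to the share of the 58. The median difference of the 58 was 0.01, 0.03 and -0.01, beside -0.18, 0.01 and -0.08 over all genes.

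Jph2, the second junctophilin, read 290, 267 and 384 RPM in uninjured WT and 696, 506 and 1061 RPM in uninjured KO replicates 1 to 3. The groups did not overlap, as held with the KO higher for 6.2% of all genes, and the difference was 1.22 (SE 0.32, limma adjusted p = 0.153). Calm3, 1 of the calmodulin genes, read 158, 141 and 214 RPM in uninjured WT and 339, 290 and 473 RPM in uninjured KO, a difference of 1.09 (SE 0.28, limma adjusted p = 0.153). Both genes passed with TMM scaling in uninjured muscle, where limma then called 110 of all 12460 genes. In injured muscle Jph2 read 437, 564 and 338 RPM in WT and 964, 307 and 885 RPM in KO, which overlap, and differed by 0.55 (SE 0.46, limma adjusted p = 0.72). Calm3 differed there by 0.63 (SE 0.36, limma adjusted p = 0.587). Jsrp1, a junctional protein of the reticulum, differed by 0.95 (SE 0.30, limma adjusted p = 0.208), and Rcan1, a regulator of calcineurin, by 0.78 (SE 0.33, adjusted p = 0.326). The difference of Sri, the calcium-binding protein sorcin, was -0.81 (SE 0.29, limma adjusted p = 0.254). In injured muscle these 3 genes differed by 0.17 for Jsrp1, 0.28 for Rcan1 and 0.29 for Sri, the last with the opposite sign.

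Mrln encodes myoregulin, a further small inhibitor of the pump in muscle, and its values ran the other way from Sln. It read 225, 236 and 210 RPM in injured WT and 128, 147 and 121 RPM in injured KO replicates 1 to 3, with no overlap. Separation with the KO lower held there for 8.63% of all genes. The difference was -0.76 (SE 0.16, limma unadjusted p = 0.00224, adjusted p = 0.199) in injured muscle and -0.55 (SE 0.20, adjusted p = 0.235) for the mean of both limbs. In uninjured muscle it read 209, 184 and 227 RPM in WT and 180, 210 and 115 RPM in KO, which overlap, and the difference was -0.33 (SE 0.28, limma adjusted p = 0.639). Micu2, a regulator of mitochondrial calcium uptake, was higher in injured KO muscle by 0.55 (SE 0.16, limma adjusted p = 0.327), and the pump Atp2a3 by 0.70 (SE 0.31, adjusted p = 0.514). By role, all 4 store refill genes had a lower estimate in uninjured KO muscle, between -0.31 and -0.19, close to the median of all genes.

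The genes whose profiles over the 12 libraries came nearest to each member were found by the root mean square difference of the centred log2(RPM + 1) profiles, among genes with a mean of at least 10 RPM. For Sln these were Myh7 (0.40), Tnnt1 (0.46) and Tnni1 (0.49), all 3 in the slow-fibre marker list, beside a spread of 1.28 of Sln about its own mean. Its nearest gene among the other 9 members was Atp2a2, at 0.76. For Atp2a2 the nearest were Prkar2b (0.32), Nnt (0.47) and Myoz2 (0.47), with its own spread 1.06. For Cacna1s they were Wsb2 (0.26), Golga4 (0.27) and Fam20b (0.33), and for Jph1 they were Neb (0.15), Oat (0.16) and Dlat (0.17). For Atp2a1 they were Hsp90ab1 (0.14), Pygm (0.16) and Vps72 (0.16), for Casq2 Stat3 (0.21), Ankrd46 (0.23) and Mtmr6 (0.23), and for Pln Cdc42ep4 (0.14), Syt11 (0.18) and Myo1c (0.19). Casq1, Ryr1 and Pvalb varied little, with spreads of 0.24, 0.25 and 0.25 about their own means. Casq1 had Stoml2 (0.11), Atp5c1 (0.11) and Cd63 (0.12), Ryr1 had Abcf1 (0.08), Tsc2 (0.10) and Mylk2 (0.11), and Pvalb had Cradd (0.13), Rpl36al (0.13) and Atp6v1f (0.14).

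Binding of Myf6 was read from 12898 peaks that the authors called in myotubes, a cell type other than the tissue of the RNA libraries. Within 50 kb of the 10 genes lay 37 peaks. A peak lay within 50 kb of 9 of the 10, all but Pln, and within the gene itself for 7 of the 10, Atp2a2, Sln, Casq2, Ryr1, Cacna1s, Pvalb and Jph1. Of 12045 protein-coding genes tested for expression, 60.6% had a peak within 50 kb and 25.2% within the gene, and neither share is adjusted for gene length. The 10 genes run from the 3599 bases of Sln to the 155819 bases of Jph1. Fold enrichment over the local background is the authors' value, and its median over all peaks was 7.68.

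A binding peak met the promoter window (250 bases before to 50 after a RefSeq start) of 2 of the 7 genes with an entry, Atp2a1 and Pvalb, as 2 of 8 windows, and 1.20% of all 32851 windows. The Atp2a1 peak, chr7:126463178-126463347 with 7.57-fold enrichment, ran from 274 to 105 bases before the start. The CAGCTG of the sequence printed above lies nearer the start, outside that interval. The Pvalb peak, chr15:78204095-78204248 with 9.92-fold enrichment, met the second of 2 RefSeq starts and had its summit 84 bases after that start. Ryr1 had a pair of peaks inside the gene, chr7:29123855-29124068 with 8.76-fold and chr7:29124199-29124391 with 3.60-fold enrichment, with summits 1194 and 843 bases after its RefSeq start. The highest enrichment near any of the 10 was 25.6-fold at chr5:122439449-122439795, which lies 13.9 kb from Atp2a2 and within the gene Anapc7, and ranked 59 of all peaks. Sln had a peak of 4.45-fold within the gene, chr9:53852266-53852423, and one of 15.0-fold 14.1 kb away, chr9:53836049-53836333. Jph1 had a 14.4-fold peak within the gene at chr1:17085220-17085415. Sln, Atp2a2 and Jph1 have no promoter sequence printed here. With 1 ChIP library there is no replicate check of these peaks.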

How the data were processed

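RNA-seq was analysed in 12 libraries of mouse hind limb muscle, 3 in each of 4 groups, and ChIP-seq in 1 library with 1 control. The authors deposited, per the file headers, RPM per gene and library in 1 table for each injury state, with a log2 fold change, a standard error, and p-value and q-value columns. The sign of the deposited log2 change is WT over KO for all 331 and 225 genes with a q-value under 0.05. The deposited peak list gives, per the file headers, pileup signal, fold enrichment and −log10 q-value columns from MACS2 2.1.0.20140616 at a q cutoff of 0.05. The submitters' processing notes name HISAT2 2.1.0, SAMtools, featureCounts, DESeq2, Bowtie 1.1.0 and MACS2, and the builds mm10 and GRCm38.p5, without saying which step used which. Strand use, the annotation and the treatment of reads with several matches are not given in the sources used here. The levels of paralogs and of the 5 members that overlap another gene (Atp2a1, Pln, Casq1, Ryr1 and Jph1) are therefore uncertain. Gene positions and promoter sequences are those of RefSeq for GRCm38.p6, whose chromosomes are those of mm10, and 165 peak summits lay within 100 bases of a RefSeq start against 38 at 900 to 1000 bases.

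From the deposited RPM, log2(RPM + 1) was tested with limma 3.58.1 (R 4.3.3) with a mean-variance trend, two-sided, over genes that reached 1 RPM in 3 or more fitted libraries, with Benjamini-Hochberg adjustment over all of them and a threshold of 0.05. KO was compared with WT on the 6 libraries of a state or on the mean of both limbs of 6 animals, and injury and interaction on all 12 libraries. The fit was tested on simulated data with the same dispersion for every gene and no outlying animal. That test does not cover the wide spread of some members or the effect of KO replicate 2. Whole reads were recovered from the RPM steps, since 100% of the values came out whole within 0.1 read, and served edgeR 4.0.16 and DESeq2 1.42.0 as alternatives. Ratios were compared by exact permutation. No 2 libraries agreed within sampling noise. The number in the labels is read as pairing the limbs of an animal, but the main injury and interaction fits had no term for the animal. Only the alternative with the animal as a block used the pairing. The correlation of deviations between limbs of an animal was 0.0527 to 0.676 in KO and -0.318 to 0.305 in WT. Its mean was 0.438 in KO and 0.010 in WT, against -0.225 and -0.0047 for limbs with different numbers. All 10 members are named, with the 5 other calcium genes of the largest difference, among those with a mean of at least 10 RPM, in each KO against WT comparison and the 3 nearest profiles of each member. The members, lists and tests were chosen with earlier results of these data known.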

Additional observations from a re-analysis of the deposited data

How the results depend on the processing

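The 10 genes had 0 calls in each comparison by limma, and alternatives added calls but removed none, since there were none to lose. In uninjured muscle 1 gene was called by DESeq2 on recovered reads, and in injured muscle 1, both Sln. For the mean of both limbs 1 gene, Sln, was called by DESeq2, with TMM scaling, with upper quartile scaling and with scaling outside mitochondrial genes. These 3 scalings called 182, 199 and 268 of all 13337 genes there. Leaving out a library or animal gave 0 to 3 calls in injured muscle and 0 to 4 for the mean of both limbs, and over all genes 0 to 2343 and 18 to 2517, the highest of each without KO replicate 2. Other calls over all genes moved more: limma called 35 in uninjured muscle and DESeq2 663, 34 and 427 in injured muscle, and 155 and 632 for the mean of both limbs. Of 1206 values recomputed, 69 differences of single genes turned sign, none of them past a threshold, and the cause was not tested. With edgeR the turned values were Jph1 uninjured 0.29, Atp2a1 injured 0.10, Ryr1 on injury in WT -0.059 and in KO -0.28, Pln on injury in KO -0.27 and the Cacna1s interaction -0.048. With DESeq2 they were 0.29, 0.12, -0.081, -0.29, -0.27 and -0.025 in the same order. With TMM scaling they were Jph1 uninjured 0.13, Casq1 mean of both limbs 0.090, and on injury in KO Pln -0.21 and Ryr1 -0.27. With upper quartile scaling they were Jph1 uninjured 0.057, Casq1 mean of both limbs 0.015, Ryr1 on injury in WT -0.013 and in KO -0.27, and Pln on injury in KO -0.21. With scaling outside mitochondrial genes they were Casq1 uninjured -0.052, Pvalb uninjured -0.13, on injury in WT Ryr1 -0.030 and Jph1 -0.0087, and the Ryr1 interaction 0.10. Leaving out each library in turn, uninjured differences crossed 0 for Atp2a2 (-0.36 to 1.08), Pln (-0.0044 to 0.43), Casq1 (-0.041 to 0.22), Casq2 (-0.89 to 0.18), Cacna1s (-0.38 to 1.65), Pvalb (-0.084 to 0.21) and Jph1 (-0.71 to 0.49). Injured differences crossed 0 for Atp2a1 (-0.28 to 0.48), Casq1 (-0.24 to 0.085) and Jph1 (-0.0014 to 1.05). For the mean of both limbs those of Atp2a1 (-0.0080 to 0.59), Casq1 (-0.12 to 0.15), Casq2 (-0.16 to 0.49) and Jph1 (-0.29 to 0.77) did. On injury in WT Casq2 (-0.31 to 0.037), Ryr1 (-0.10 to 0.25) and Jph1 (-0.20 to 0.41) did, and in KO Atp2a1 (-0.46 to 0.30), Pln (-0.038 to 0.094), Casq1 (-0.19 to 0.15), Ryr1 (-0.051 to 0.092) and Jph1 (-0.0081 to 1.20). The interaction crossed 0 for Ryr1 (-0.23 to 0.13), Cacna1s (-0.35 to 1.68) and Jph1 (-0.10 to 1.11).

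WT and KO libraries share replicate numbers but not animals, and their deviations correlated at 0.044 to 0.498 in uninjured and -0.63 to -0.345 in injured muscle. In injured muscle no library correlated best with its own number, and the mean correlation was -0.491 for shared numbers against 0.211 for others. In uninjured muscle these means were 0.309 and -0.153, and not every library correlated best with its own number. With the replicate number as a block, limma called 1 of the 10, Sln, in uninjured muscle (adjusted p = 0.0388), 0 in injured muscle (Sln adjusted p = 0.428) and 1, Sln, for the mean of both limbs (adjusted p = 0.0195), and over all genes it called 752, 0 and 96. With the animal as a block no call changed in the injury comparisons or the interaction. In the smallest library 3 reads are 1.60 RPM, which limits what can be said of Pln alone among the 10.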
